A study of Mus musculus with 9 samples.

Results

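Skin that had been challenged repeatedly with urushiol was compared with control skin across the whole genome, with the weight on pathways and gene families outside the usual immune lists. The members of the comparison were the arrays whose titles name the urushiol-induced group (3 arrays) and those whose titles name the control group (3 arrays), 6 of the 9 arrays of the series; the other 3 came from skin challenged with oxazolone. All samples were neck skin of male C57BL/6 mice aged 6 to 8 weeks, hybridised to Affymetrix arrays. Urushiol and oxazolone mice were sensitised with a 2% solution on the shaved abdomen and challenged from 5 days later on the shaved nape with 0.5% in 40 µl acetone, 5 times in all up to day 8; the tissue was collected 4 hours after the final challenge. The sources used here do not say if control mice were also shaved and given acetone, so these handling steps cannot be told apart from the allergen. The labels call the arrays biological replicates and do not say whether mice were pooled.

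Urushiol is the oily mixture of alkyl catechols that makes poison ivy, poison oak and the lacquer tree allergenic. In skin the catechols are oxidised to quinones, which attach to proteins and make them visible to T cells. On renewed contact the skin becomes inflamed and the epidermis thickens, and keratinocytes that divide and rebuild the barrier need ribosomes, folding enzymes for secreted and membrane proteins, amino acids and polyamines. The same epidermis has its own retinoid, peroxide and water transport systems, while the dermis, fat and thin muscle sheet beneath contribute their own RNA to a whole-skin sample.

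In urushiol skin 19 of 27 measured ribosome biogenesis factors, 11 of 18 aminoacyl-tRNA synthetases and 12 of 23 genes of protein folding in the endoplasmic reticulum rose and 0 fell, against 9.96% of all 30142 genes (3003) that rose and 6.43% (1939) that fell. Of 33 genes for breaking down branched-chain amino acids and for peroxisomes 20 fell and 0 rose. In a fit of the 6 urushiol and control arrays alone, called the 6-array fit below, 1449 genes rose and 875 fell, and these 4 lists gave 4, 8, 8 and 9 calls in the same order and directions. Single genes moved much further: the cystine exchanger gene Slc7a11 and the water channel gene Aqp3 rose by 6.31 and 6.47, and the semaphorin gene Sema3d fell by 5.45, on a log2 scale. Levels are log2 values, and every difference below is a log2 level in urushiol skin minus that in control skin, with n = 3 arrays in each group. Values ran from 2.20 to 19.93, past the log2 limit of 16 of the scanner for 682 genes on at least 1 array, so a log2 difference may not equal the log2 ratio of RNA amounts. Each gene was tested with limma on the 9 arrays and its p was adjusted by Benjamini-Hochberg; rose and fell are used for genes with an adjusted p below 0.05. The median difference over the 30142 genes was 0.04. With 3 arrays a group exact permutation could give no p under 0.1, so calls rest on the variance model of limma. After quantile renormalisation 2124 genes rose and 2479 fell, which moved the share of rises among the calls from 60.8% to 46.1%.

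One control array, number 3, differed from its group. Across genes its correlation was 0.979 with control array 1 and 0.978 with control array 2, while those 2 reached 0.995 together; with the challenged arrays it was 0.969 to 0.978. The mean log2 level of 17 measured markers of growing (anagen) hair follicles was 6.20, 6.38 and 11.09 in control skin and 9.93, 10.66 and 10.21 in urushiol skin, and that of 14 markers of dividing cells was 7.68, 7.30 and 9.50 and 9.51, 9.76 and 9.83. For 15 skeletal muscle markers the means were 16.51, 16.54 and 14.01 against 10.49, 10.38 and 11.04, and 13 of them fell. Adipocyte markers, of which 8 of 10 fell, averaged 10.81, 11.53 and 10.99 against 9.30, 9.37 and 9.85. Neutrophil markers, of which 8 of 9 rose (5 without control array 1), averaged 6.35, 6.76 and 6.67 against 10.93, 9.92 and 10.58. Control array 3 thus lay beside the urushiol arrays for hair and dividing-cell markers and between the groups for muscle. Of the 17 hair markers 0 rose, but 11 did without control array 3. Of the 14 dividing-cell markers 1 rose (0 in the 6-array fit), but 14 did without control array 3. Without it 15.1% (4566) of genes rose and 10.2% (3089) fell. Leaving out any 1 of the other 5 arrays gave 1326 (urushiol array 1) to 2009 (urushiol array 2) rises and 863 to 1125 falls, and the highest adjusted p over the 6 fits that each lack 1 of these arrays is given beside each gene described in full. As in any sample of whole tissue, fewer cells of a type and less RNA per cell cannot be told apart. As a check of the tissue label, the mean of 7 basal keratinocyte markers stood at 13.24 to 13.75 in every array of both groups, and that of 6 suprabasal ones at 15.74 to 17.44. Single members did change: 2 of the 7 basal markers rose and 1 fell, with differences from -4.7 to 3.07. Of the 6 suprabasal markers 4 rose (2 in the 6-array fit) and 1 fell, with differences from -1.58 to 2.87.

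**Figure D1:**
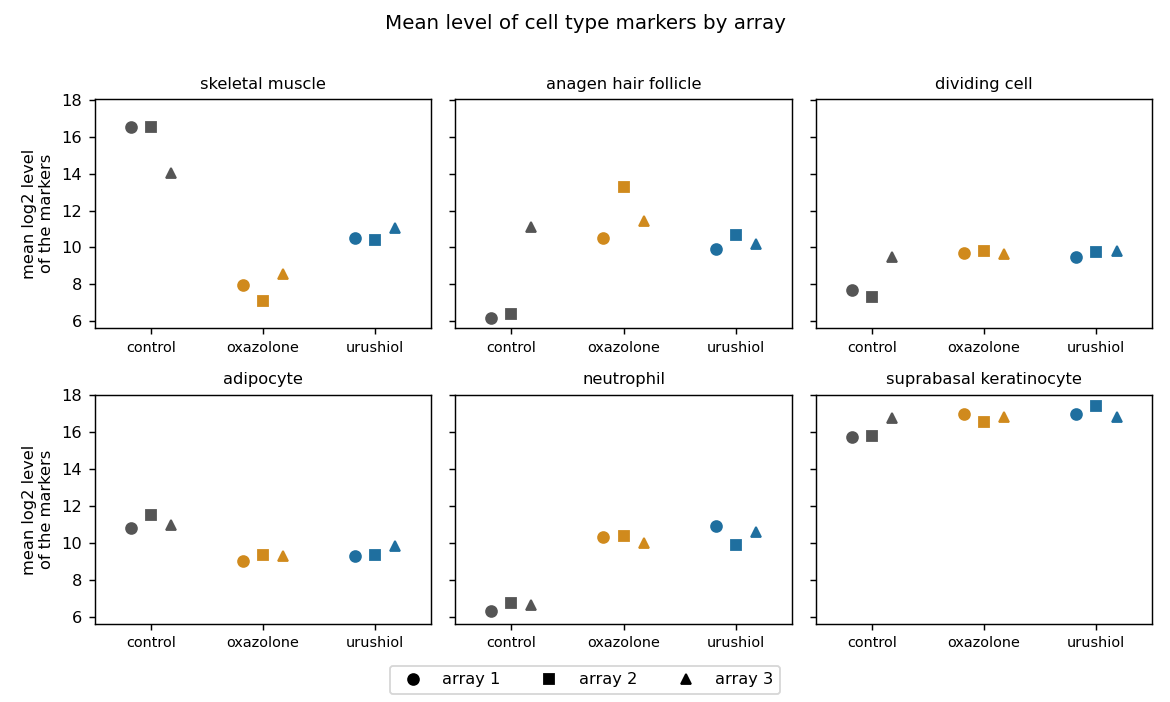
Mean log2 level (vertical axis) of the markers of 6 cell types on each array of control, oxazolone and urushiol skin; each symbol is 1 array and its shape the array number. For hair follicle and dividing-cell markers control array 3 (grey triangle, 11.09 and 9.50) sits with the challenged arrays, while the other controls lie at 6.20 to 6.38 and 7.30 to 7.68.

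The endoplasmic reticulum, where secreted and membrane proteins are folded, was among the compartments with rises and no falls. Of its chaperones and the sensors of the unfolded protein response, 12 of 23 measured members rose and 0 fell, with a median difference of 0.90. Hspa5, the chaperone BiP that also holds the stress sensors inactive, stood at 12.32, 12.08 and 12.31 in control skin and 14.76, 14.10 and 14.12 in urushiol skin. Hspa5 was higher on every urushiol array than on any control array, by 2.09 ± 0.29 (SE; adjusted p = 0.0057, at most 0.027 with any 1 array left out). Creld2, a protein of the same compartment, stood at 8.56, 8.21 and 9.06 in control skin and 10.99, 10.63 and 10.48 in urushiol skin. Creld2 rose by 2.09 ± 0.38 (SE; adjusted p = 0.0131, above 0.05 without any 1 of control array 2 or urushiol array 1, up to 0.0528), again with no overlap of the arrays. Other rises were 1.51 for Dnajb9, a co-chaperone of Hspa5, 1.45 for the disulphide isomerase Pdia6, 1.26 for Pdia3, and 1.16, 0.93 and 1.16 for the lectin chaperones Calr and Canx and for Hsp90b1 (GRP94). Other members passed no test: Xbp1, the transcription factor spliced in this response, differed by 0.29 ± 0.12 (SE; adjusted p = 0.144), and Herpud1, a factor of the degradation route, by -0.59 ± 0.41 (SE; adjusted p = 0.383). The folding list had 4 (without urushiol array 1) to 11 (without control array 3) rises with 1 array left out, and 7 rose after quantile renormalisation. Dnajb9 (0.0961 without urushiol array 1), Pdia3 (0.0819 without urushiol array 1), Calr (0.0575 without control array 1), Canx (0.0714 without urushiol array 1) and Hsp90b1 (0.0922 without urushiol array 1) had an adjusted p above 0.05 with that array left out.

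Many genes of this kind carry a fixed DNA word, the ER stress response element (CCAAT, 9 bases of any kind, CCACG), close to their start. It was searched on both strands of the 300 bases from 250 before to 50 after each start in the RefSeq table for GRCm38.p6. Of 27025 promoters 35 held it (0.13%), and so did 9 of the 20 promoters found for the list (Calr, Canx, Creld2, Derl3, Dnajc3, Hsp90b1, Hspa5, Pdia6 and Syvn1). Of these 9 genes 7 rose, and of the 11 without the word 4 did. The stretches below are shown because their genes are among those that rose; capitals mark the matched word, read in either direction, with 20 bases on each side. Hsp90b1 holds 2 matches, of which 1 is shown.
Hspa5 promoter, chr2:34772005-34772063, plus strand: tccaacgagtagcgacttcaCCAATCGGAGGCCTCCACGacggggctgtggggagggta
Hsp90b1 promoter, chr10:86705513-86705571, minus strand: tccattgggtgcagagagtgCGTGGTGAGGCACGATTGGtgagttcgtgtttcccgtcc
Calr promoter, chr8:84847055-84847113, minus strand: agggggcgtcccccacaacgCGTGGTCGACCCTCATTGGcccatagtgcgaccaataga
A match describes the letters of these windows and not the binding of a factor.

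Genes that supply and load amino acids also rose in part. Of the cytosolic aminoacyl-tRNA synthetases, which attach each amino acid to its tRNA, 11 of 18 measured members rose and 0 fell, with a median difference of 0.62. Rars, which loads arginine, stood at 11.79, 11.63 and 12.28 in control skin and 14.09, 13.60 and 13.75 in urushiol skin. Rars differed by 1.91 ± 0.18 (SE; adjusted p = 0.00158, at most 0.0105 with any 1 array left out), all urushiol arrays lying above all controls. Nars, the asparagine enzyme, rose by 1.44 ± 0.12 (SE; adjusted p = 0.00111, at most 0.00766 with any 1 array left out), and Gars, the glycine enzyme, by 1.64; the smallest called rise was 0.29, in Yars. In the list of amino acid response genes driven by the transcription factor ATF4, 6 of 18 measured members rose and 1 fell, with a median difference of 0.54. Asns, which makes asparagine, stood at 8.61, 8.42 and 8.80 in control skin and 11.43, 10.57 and 10.93 in urushiol skin. Asns rose by 2.37 ± 0.21 (SE; adjusted p = 0.00123, at most 0.00862 with any 1 array left out) and did not overlap between groups. Psat1, a step of serine synthesis, rose by 1.35, Atf4 itself by 0.91 and the pseudokinase Trib3 by 0.53, while Atf5 fell by 0.24. The ATF4 list had 3 (without control array 1) to 8 (without control array 3) rises (3 in the 6-array fit) and 0 (without control array 2) to 2 (without control array 3) falls (0 in the 6-array fit) with 1 array left out. Yars (0.131 without control array 2), Atf4 (0.0597 without urushiol array 3) and Atf5 (0.0979 without urushiol array 1) had an adjusted p above 0.05 with that array left out.

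The amino acid transporters split by member, with 4 of 26 higher, 9 lower and a median difference of 0.02. Slc7a11, the cystine and glutamate exchanger that feeds glutathione synthesis, stood at 4.79, 4.90 and 6.33 in control skin and 12.00, 11.17 and 11.78 in urushiol skin. Slc7a11 rose by 6.31 ± 0.49 (SE; adjusted p = 0.000836, at most 0.0065 with any 1 array left out), the largest called rise of the list and of all 375 measured solute carriers. Slc7a1, a carrier of arginine and lysine, rose by 1.97 ± 0.52 (SE; adjusted p = 0.0442, above 0.05 without any 1 of control arrays 1 or 2 or urushiol arrays 1, 2 or 3, up to 0.137), and Slc7a5, which carries leucine and other large neutral amino acids, by 1.72. Among the falls, Slc7a6 stood at 10.29, 10.39 and 10.42 in control skin and 7.86, 7.88 and 8.40 in urushiol skin. Slc7a6, an exchanger of cationic for neutral amino acids, fell by 2.32 ± 0.15 (SE; adjusted p = 0.000487, at most 0.0045 with any 1 array left out) with control array 3 level with the other controls. Slc38a3 (-2.63) and Slc38a4 (-2.65), glutamine and neutral amino acid carriers, also fell, and for both control array 3 lay between the groups, as the muscle markers did; the part of muscle in these falls was not tested. The transporter list had 2 (without control array 1) to 5 (without control array 3) rises with 1 array left out. The word TGATGNAA, part of the amino acid response element, was in 4.06% of all promoters (1096 of 27025), in 5 of 18 of the ATF4 list, in 4 of 11 of the synthetases and in 3 of 20 of the transporters. Of the 5 ATF4-list genes with the word 2 rose, and of the 13 without it 4 did. The windows of Asns and Slc7a11, which rose most in their lists, are shown with 1 match in capitals, read in either direction; Slc7a11 holds 2.
Asns promoter, chr6:7693210-7693252, minus strand: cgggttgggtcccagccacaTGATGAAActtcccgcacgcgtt
Slc7a11 promoter, chr3:50443633-50443680, minus strand: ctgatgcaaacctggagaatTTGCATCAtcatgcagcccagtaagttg Slc7a5 (0.143 without control array 2), Slc38a3 (0.079 without control array 2) and Slc38a4 (0.153 without control array 2) had an adjusted p above 0.05 with that array left out.

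Ribosome assembly gave a high share of rises. Of the ribosome biogenesis factors, which process and modify ribosomal RNA in the nucleolus, 19 of 27 measured members rose and 0 fell, with a median difference of 0.76. Nop58, a core protein of box C/D small nucleolar ribonucleoproteins, stood at 11.71, 11.40 and 13.09 in control skin and 14.58, 14.37 and 14.35 in urushiol skin. Nop58 rose by 2.37 ± 0.40 (SE; adjusted p = 0.0111, at most 0.0456 with any 1 array left out), with control array 3 the highest of the controls but still below every urushiol array. Wdr43, a factor for the small subunit, stood at 10.67, 10.17 and 10.89 in control skin and 12.47, 12.09 and 12.24 in urushiol skin. Wdr43 rose by 1.69 ± 0.19 (SE; adjusted p = 0.00269, at most 0.0143 with any 1 array left out). Ncl (nucleolin) rose by 1.39, Npm1 (nucleophosmin) by 1.29 and the pseudouridine synthase Dkc1 by 1.39. Dividing-cell markers were also higher on control array 3 than on the other controls, at 9.50 against 7.68 and 7.30, and their part in these rises was not tested. The ribosome biogenesis list had 10 (without control array 1) to 23 (without control array 3) rises (4 in the 6-array fit) with 1 array left out. The E-box CACGTG was present in 7 of 22 promoters of this list against 7.24% of all (1957 of 27025); 6 of those 7 genes rose, and 10 of the 15 without it. Npm1 (0.0877 without urushiol array 1) had an adjusted p above 0.05 with that array left out.

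Small nucleolar RNAs, which guide those modifications, moved the same way: 24 of 62 measured genes rose and 0 fell, with a median difference of 0.81. Snord93 stood at 7.95, 7.98 and 8.44 in control skin and 11.33, 10.20 and 10.33 in urushiol skin. Snord93 rose by 2.50 ± 0.31 (SE; adjusted p = 0.00402, at most 0.0211 with any 1 array left out), and its arrays did not overlap. Snora73a and Snora73b, whose clusters may share signal because the RNAs are near copies, rose by 2.27 and 2.36. Most such RNAs lie within introns of other genes, and signal from the host transcript cannot be told apart here. The small nucleolar RNA list had 7 (without control array 1) to 31 (without control array 3) rises (11 in the 6-array fit) and up to 1 (without urushiol array 1) fall (3 after quantile renormalisation) with 1 array left out. Of 42 cytosolic ribosomal protein genes 12 rose, with a median difference of 0.67, but the count was 1 without control array 1, 35 without control array 3, 4 after quantile renormalisation and 0 in the 6-array fit. The 1 that fell was Rpl3l (-3.34), a form of the ribosomal protein found in striated muscle, for which control array 3 lay between the groups. Mitochondrial ribosomal proteins had 5 of 75 members higher (6.67%), 4 lower (5.33%) and a median of 0.04. Over all genes 9.96% rose and 6.43% fell. The mitochondrial list had 3 (without control array 1) to 6 (without urushiol array 2) rises (3 in the 6-array fit) and 0 (without control array 1) to 12 (without control array 3) falls (1 in the 6-array fit) with 1 array left out. Snora73a (0.0539 without control array 2), Snora73b (0.0522 without control array 1) and Rpl3l (0.111 without control array 2) had an adjusted p above 0.05 with that array left out.

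Subunits of the chaperonin and the proteasome rose in part. Of 7 measured subunits of the chaperonin that folds actin and tubulin, 5 rose, with Cct3 at 10.98, 10.72 and 11.50 in control skin and 12.31, 12.10 and 12.45 in urushiol skin. Cct3 differed by 1.22 ± 0.19 (SE; adjusted p = 0.0083, at most 0.0366 with any 1 array left out). Of 32 proteasome subunits 19 rose and 0 fell, with a median of 0.55. Psmd14, the deubiquitinase of the lid, stood at 9.94, 9.72 and 10.13 in control skin and 11.33, 10.73 and 11.08 in urushiol skin. Psmd14 rose by 1.12 ± 0.16 (SE; adjusted p = 0.00647, at most 0.0291 with any 1 array left out), and Psma5, a ring subunit, by 1.06. After quantile renormalisation 3 chaperonin and 11 proteasome subunits rose, and 1 proteasome subunit fell. The proteasome list had 9 (without control array 2) to 23 (without urushiol array 2) rises (7 in the 6-array fit) with 1 array left out. The chaperonin list had 3 (without control array 1) to 6 (without control array 3) rises (2 in the 6-array fit) with 1 array left out. Among the heat shock proteins Hsp90aa1 (1.33) and Hspa8 (0.59), chaperones of the cytosol, and Hspd1 (0.85), of mitochondria, rose, while 6 small heat shock proteins fell, Hspb7 by the most. Hspb7, known from heart and skeletal muscle, stood at 12.97, 13.16 and 10.43 in control skin and 6.50, 6.93 and 7.33 in urushiol skin. Hspb7 fell by 5.27 ± 0.69 (SE; adjusted p = 0.00451, at most 0.0215 with any 1 array left out), with control array 3 between the groups as for the muscle markers, whose part in this fall was not tested. The heat shock list had 1 (without control array 1) to 5 (without control array 3) rises (2 in the 6-array fit) and 3 (without control array 1) to 9 (without control array 3) falls (3 in the 6-array fit) with 1 array left out. Psma5 (0.0886 without control array 2), Hsp90aa1 (0.0967 without urushiol array 1) and Hspa8 (0.069 without urushiol array 1) had an adjusted p above 0.05 with that array left out.

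Of the genes of arginine and polyamine metabolism, 7 of 12 measured members rose and 0 fell, with a median difference of 0.78. Polyamines are small cations made from ornithine that growing cells need for translation, and arginase supplies the ornithine. Arg1, arginase, stood at 8.15, 8.24 and 8.14 in control skin and 13.39, 12.68 and 12.20 in urushiol skin. Arg1 was higher on every urushiol array, by 4.58 ± 0.59 (SE; adjusted p = 0.00436, at most 0.0217 with any 1 array left out). Odc1, the rate-limiting enzyme that decarboxylates ornithine, stood at 11.32, 11.33 and 12.12 in control skin and 14.74, 14.15 and 14.82 in urushiol skin. Odc1 rose by 2.98 ± 0.25 (SE; adjusted p = 0.0011, at most 0.00726 with any 1 array left out). Further along, spermidine synthase Srm rose by 1.28, and spermidine/spermine acetyltransferase Sat1, the exit step, stood at 10.43, 10.98 and 11.23 in control skin and 13.67, 13.20 and 13.10 in urushiol skin. Sat1 rose by 2.44 ± 0.23 (SE; adjusted p = 0.00134, at most 0.00827 with any 1 array left out), and spermine oxidase Smox by 1.57. Enzymes that make polyamines and enzymes that break them down were thus among those that rose. The polyamine list had up to 1 (without control array 3) fall with 1 array left out. On the oxazolone arrays Arg1 stood at 12.87, 10.46 and 12.10 and Odc1 at 15.15, 15.20 and 15.16; urushiol minus oxazolone was 0.95 ± 0.59 (SE; adjusted p = 0.984) for Arg1 and -0.60 ± 0.25 (SE; adjusted p = 0.85) for Odc1.

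**Figure D2:**
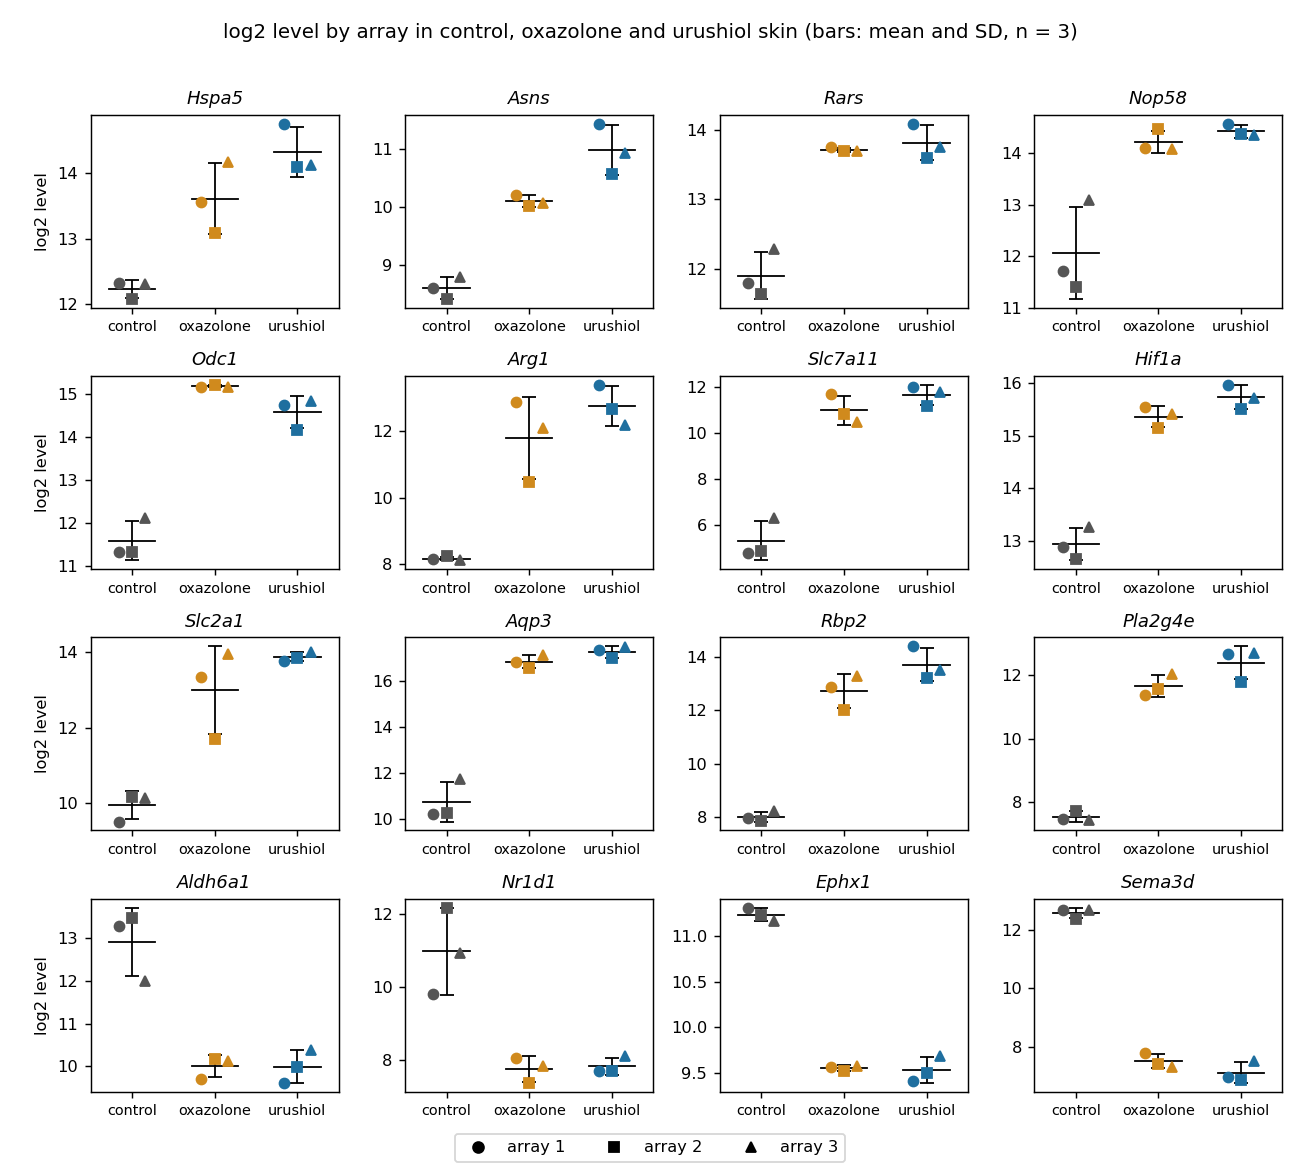
log2 level (vertical axes, which differ between panels and do not start at 0) of 16 genes on each array of control, oxazolone and urushiol skin; symbols are arrays, horizontal lines the group means and bars the SD (n = 3). In all 16 panels the 3 urushiol arrays lie wholly above or wholly below the 3 controls; Nop58, Odc1 and Slc7a11 show control array 3 as the highest control and Aldh6a1 shows it as the lowest.

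Of the genes that respond to low oxygen, 10 of 22 measured members rose and 0 fell, with a median difference of 0.72. Hif1a, the oxygen-regulated transcription factor, stood at 12.89, 12.66 and 13.27 in control skin and 15.96, 15.50 and 15.72 in urushiol skin. Hif1a rose by 2.79 ± 0.19 (SE; adjusted p = 0.000564, at most 0.00479 with any 1 array left out). Slc2a1, the glucose carrier GLUT1, stood at 9.52, 10.17 and 10.15 in control skin and 13.77, 13.85 and 14 in urushiol skin. Slc2a1 rose by 3.93 ± 0.53 (SE; adjusted p = 0.00497, at most 0.0247 with any 1 array left out), on every urushiol array. Car12, a carbonic anhydrase of the cell surface, rose by 3.77 ± 0.43 (SE; adjusted p = 0.00292, at most 0.0157 with any 1 array left out), Egln3, an oxygen-sensing prolyl hydroxylase, by 3.14, and Ero1a, an oxidase for disulphide formation in the endoplasmic reticulum, by 2.72. Vegfa, a classical target of the pathway, differed by 0.79 ± 0.45 (SE; adjusted p = 0.28). The hypoxia list had 4 (without control array 1) to 8 (without control array 3) rises with 1 array left out. The core word TACGTG was in 5 of 20 promoters of the list and in 3.16% of all (853 of 27025); 2 of those 5 genes rose and 8 of the 15 without it did. Egln3 (0.138 without urushiol array 1) and Ero1a (0.0749 without control array 2) had an adjusted p above 0.05 with that array left out.

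A list of the aryl hydrocarbon receptor, its targets and the enzymes that handle catechols and quinones had 7 of 23 members higher and 5 lower. Akr1b8, an aldo-keto reductase of reactive aldehydes, stood at 8.16, 7.84 and 8.19 in control skin and 12.66, 11.48 and 12.10 in urushiol skin. Akr1b8 rose by 4.02 ± 0.33 (SE; adjusted p = 0.000971, at most 0.00695 with any 1 array left out). Tiparp, a target and inhibitor of the aryl hydrocarbon receptor, rose by 2.36 ± 0.31 (SE; adjusted p = 0.00465, at most 0.0236 with any 1 array left out), and the quinone reductase Nqo1 by 0.64. The receptor itself, Ahr, stood at 11.03, 11.19 and 11.23 in control skin and 10.01, 10.24 and 9.90 in urushiol skin. Ahr fell by 1.10 ± 0.16 (SE; adjusted p = 0.00678, at most 0.0303 with any 1 array left out). Cyp1a1 and Cyp1b1, the receptor's best known targets, differed by -0.26 ± 0.33 (SE; adjusted p = 0.646) and 0.33 ± 0.40 (SE; adjusted p = 0.637), and their arrays overlapped. Ephx1, the microsomal hydrolase of epoxides, stood at 11.31, 11.23 and 11.16 in control skin and 9.41, 9.50 and 9.69 in urushiol skin. Ephx1 fell by 1.70 ± 0.08 (SE; adjusted p = 0.000251, at most 0.00296 with any 1 array left out) and ranks among the 8 leading falls by moderated t. The receptor and quinone list had 3 (without control array 1) to 7 (without control array 3) falls (3 in the 6-array fit) with 1 array left out. Nqo1 (0.0697 without urushiol array 3) had an adjusted p above 0.05 with that array left out.

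Of the peroxide enzymes 4 of 28 rose and 4 fell. Duox1, an oxidase that releases hydrogen peroxide at the keratinocyte surface, stood at 6.47, 6.33 and 6.31 in control skin and 8.88, 8.42 and 8.53 in urushiol skin. Duox1 rose by 2.24 ± 0.22 (SE; adjusted p = 0.00159, at most 0.00999 with any 1 array left out). Its maturation factor Duoxa1 stood at 8.40, 7.87 and 8.49 in control skin and 11.50, 11.04 and 10.97 in urushiol skin. Duoxa1 rose by 2.92 ± 0.27 (SE; adjusted p = 0.00134, at most 0.00844 with any 1 array left out), while Duox2 differed by 0.09 ± 0.05 (SE; adjusted p = 0.263) and stayed below the median level of all clusters (5.58) on every array. Gpx1, a glutathione peroxidase, rose by 1.96, whereas superoxide dismutase Sod1 (-1.41), the secreted peroxidase Gpx3 (-1.05) and Gpx4 (-0.80), which reduces lipid peroxides, fell. The largest fall of the list was that of catalase, Cat (-1.72), whose fits with 1 array left out are not given here. For purine handling, Uox (urate oxidase) stood at 4.84, 5.15 and 5.04 in control skin and 10.65, 7.33 and 9.96 in urushiol skin. Uox rose by 4.30 ± 0.87 (SE; adjusted p = 0.0196, above 0.05 without any 1 of control arrays 1 or 2 or urushiol arrays 1 or 3, up to 0.0682), with urushiol array 2 well below the other 2 but above every control. Ada, which deaminates adenosine, rose by 2.07, and Entpd1, which degrades extracellular ATP, by 2.03; 5 of 26 genes of purine receptors and nucleotidases rose and 4 fell. The peroxide list had 2 (without control array 1) to 8 (without control array 3) falls (2 in the 6-array fit) with 1 array left out. The purine list had 2 (without control array 1) to 4 (without control array 3) rises and 2 (without control array 1) to 7 (without control array 3) falls (2 in the 6-array fit) with 1 array left out. Gpx3 (0.0541 without urushiol array 1) and Gpx4 (0.096 without control array 2) had an adjusted p above 0.05 with that array left out.

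Among the aquaporins, Aqp3, the epidermal channel for water and glycerol, stood at 10.24, 10.30 and 11.76 in control skin and 17.32, 16.96 and 17.43 in urushiol skin. Aqp3 rose by 6.47 ± 0.40 (SE; adjusted p = 0.000452, at most 0.00388 with any 1 array left out); its urushiol levels lie above 16, where the scale is uncertain. Aqp9, a channel of leukocytes and liver, stood at 6.40, 6.77 and 6.81 in control skin and 7.87, 7.57 and 7.56 in urushiol skin. Aqp9 rose by 1.01 ± 0.13 (SE; adjusted p = 0.00431, at most 0.0163 with any 1 array left out). In the same list of aquaporins and osmolyte genes 2 of 11 members rose in all and 1, Aqp4, fell by 0.78. The aquaporin list had 0 (without control array 2) to 3 (without control array 3) falls (0 in the 6-array fit, 3 after quantile renormalisation) with 1 array left out. Trpv3, a heat-sensitive channel of keratinocytes, rose by 1.62 ± 0.40 (SE; adjusted p = 0.0351, above 0.05 without any 1 of control arrays 1 or 2 or urushiol arrays 1, 2 or 3, up to 0.116), and 5 of 24 TRP and Piezo members fell, Trpm3 by the most (-0.69). Piezo2, a touch sensor of nerve endings, differed by 0.26 ± 0.16 (SE; adjusted p = 0.327). The metallothioneins Mt1 and Mt2, which bind zinc, differed by 0.59 ± 0.31 (SE; adjusted p = 0.252) and 0.96 ± 0.42 (SE; adjusted p = 0.168). Of 21 zinc genes 2 rose (9.52%, near the 9.96% of all genes), the Golgi zinc carriers Slc30a7 (1.02) and Slc30a6 (0.70). The zinc list had 1 (without control array 1) to 9 (without control array 3) rises (1 in the 6-array fit) and up to 1 (without control array 3) fall with 1 array left out. The TRP list had 0 (without control array 1) to 2 (without control array 3) rises (1 after quantile renormalisation) and 1 (without control array 1) to 5 (without control array 3) falls (1 in the 6-array fit) with 1 array left out. Aqp4 (0.0872 without control array 1), Trpm3 (0.143 without urushiol array 1) and Slc30a6 (0.0507 without control array 1) had an adjusted p above 0.05 with that array left out.

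Vitamin A genes changed in both directions: 8 of 31 measured members rose and 7 fell, with a median difference of -0.03. Retinol is bound, esterified for storage, or oxidised to retinoic acid, which keratinocytes read through nuclear receptors. Rbp2, a cytosolic retinol binder, stood at 7.95, 7.87 and 8.23 in control skin and 14.39, 13.21 and 13.50 in urushiol skin. Rbp2 rose by 5.68 ± 0.39 (SE; adjusted p = 0.000615, at most 0.00491 with any 1 array left out). Lrat, which esterifies retinol, stood at 5.35, 5.80 and 6.71 in control skin and 10.40, 10.46 and 10.54 in urushiol skin. Lrat rose by 4.51 ± 0.37 (SE; adjusted p = 0.000981, at most 0.00714 with any 1 array left out). The dehydrogenase Dhrs9 rose by 4.36, the retinoic acid binder Crabp2 by 3.39 and the retinal dehydrogenase Aldh1a3 by 2.83. A related enzyme went the other way: Aldh1a1 stood at 13.60, 13.66 and 11.01 in control skin and 8.69, 8.28 and 9.31 in urushiol skin. Aldh1a1 fell by 4.00 ± 0.70 (SE; adjusted p = 0.0123, at most 0.0476 with any 1 array left out), with control array 3 between the groups. Dhrs3, which returns retinal to retinol, fell by 1.26 ± 0.16 (SE; adjusted p = 0.00434, at most 0.0213 with any 1 array left out), and the receptors Rxra (-0.61) and Rxrg (-1.37) fell too. The retinoid list had 5 (without control array 1) to 8 (without control array 3) rises and 4 (without control array 2) to 8 (without control array 3) falls (3 in the 6-array fit) with 1 array left out. Cyp26b1, which clears retinoic acid, differed by -0.03 ± 0.15 (SE; adjusted p = 0.923). Aldh1a3 (0.11 without urushiol array 1), Rxra (0.0648 without control array 2) and Rxrg (0.126 without control array 2) had an adjusted p above 0.05 with that array left out.

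Of 24 genes of steroid and vitamin D metabolism and response 2 rose (Hsd17b7 and Hsd17b2) and 7 fell, some of them receptors. Nr3c1, the glucocorticoid receptor, stood at 11.61, 11.36 and 11.10 in control skin and 10.24, 10.17 and 10.28 in urushiol skin. Nr3c1 fell by 1.13 ± 0.12 (SE; adjusted p = 0.00245, at most 0.0138 with any 1 array left out). Esr1, an oestrogen receptor, fell by 1.35 ± 0.20 (SE; adjusted p = 0.00741, at most 0.0331 with any 1 array left out), and Nr3c2, the mineralocorticoid receptor (-1.06). Of the glucocorticoid-responsive genes Klf9 (-2.28) and Zbtb16 (-2.20) fell, whereas Fkbp5 and Tsc22d3 differed by -0.17 ± 0.26 (SE; adjusted p = 0.71) and -0.70 ± 0.31 (SE; adjusted p = 0.167). The steroid list had 0 (without control array 1) to 3 (without control array 3) rises and 4 (without urushiol array 1) to 10 (without control array 3) falls (4 in the 6-array fit) with 1 array left out. Nr3c2 (0.144 without control array 2), Klf9 (0.0607 without urushiol array 1) and Zbtb16 (0.0903 without urushiol array 1) had an adjusted p above 0.05 with that array left out.

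The list with the largest share of falls among the 49 was the breakdown of branched-chain amino acids and the peroxisome, where 0 of 33 measured members rose and 20 fell, with a median difference of -0.82. Aldh6a1, a mitochondrial dehydrogenase of the valine pathway, stood at 13.27, 13.47 and 11.99 in control skin and 9.61, 9.99 and 10.37 in urushiol skin. Aldh6a1 fell by 2.92 ± 0.40 (SE; adjusted p = 0.00526, at most 0.0254 with any 1 array left out). Abcd2, a peroxisomal importer of long-chain acyl groups, stood at 11.62, 12.37 and 10.85 in control skin and 8.82, 8.90 and 9.29 in urushiol skin. Abcd2 fell by 2.61 ± 0.37 (SE; adjusted p = 0.00617, at most 0.0288 with any 1 array left out). The peroxisomal oxidase Acox3 fell by 1.71 ± 0.23 (SE; adjusted p = 0.00523, at most 0.0252 with any 1 array left out). Falls ran through the pathway, from Bcat2 (-0.86), the first transaminase, over both E1 subunits Bckdha (-1.06) and Bckdhb (-0.90), to Ivd (-1.33) and Mccc1 (-1.14) for leucine and Pcca (-1.07) and Pccb (-1.47) for propionyl-CoA. For Aldh6a1 and Abcd2 control array 3 was the lowest control, as it was for the muscle markers; fat and muscle markers fell in the same samples, and their part in these falls was not tested. The branched-chain list had 7 (without control array 2) to 23 (without control array 3) falls (9 in the 6-array fit) with 1 array left out. Bckdha (0.124 without urushiol array 1), Bckdhb (0.0651 without control array 2), Ivd (0.059 without urushiol array 1) and Pcca (0.128 without control array 2) had an adjusted p above 0.05 with that array left out.

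**Figure D3:**
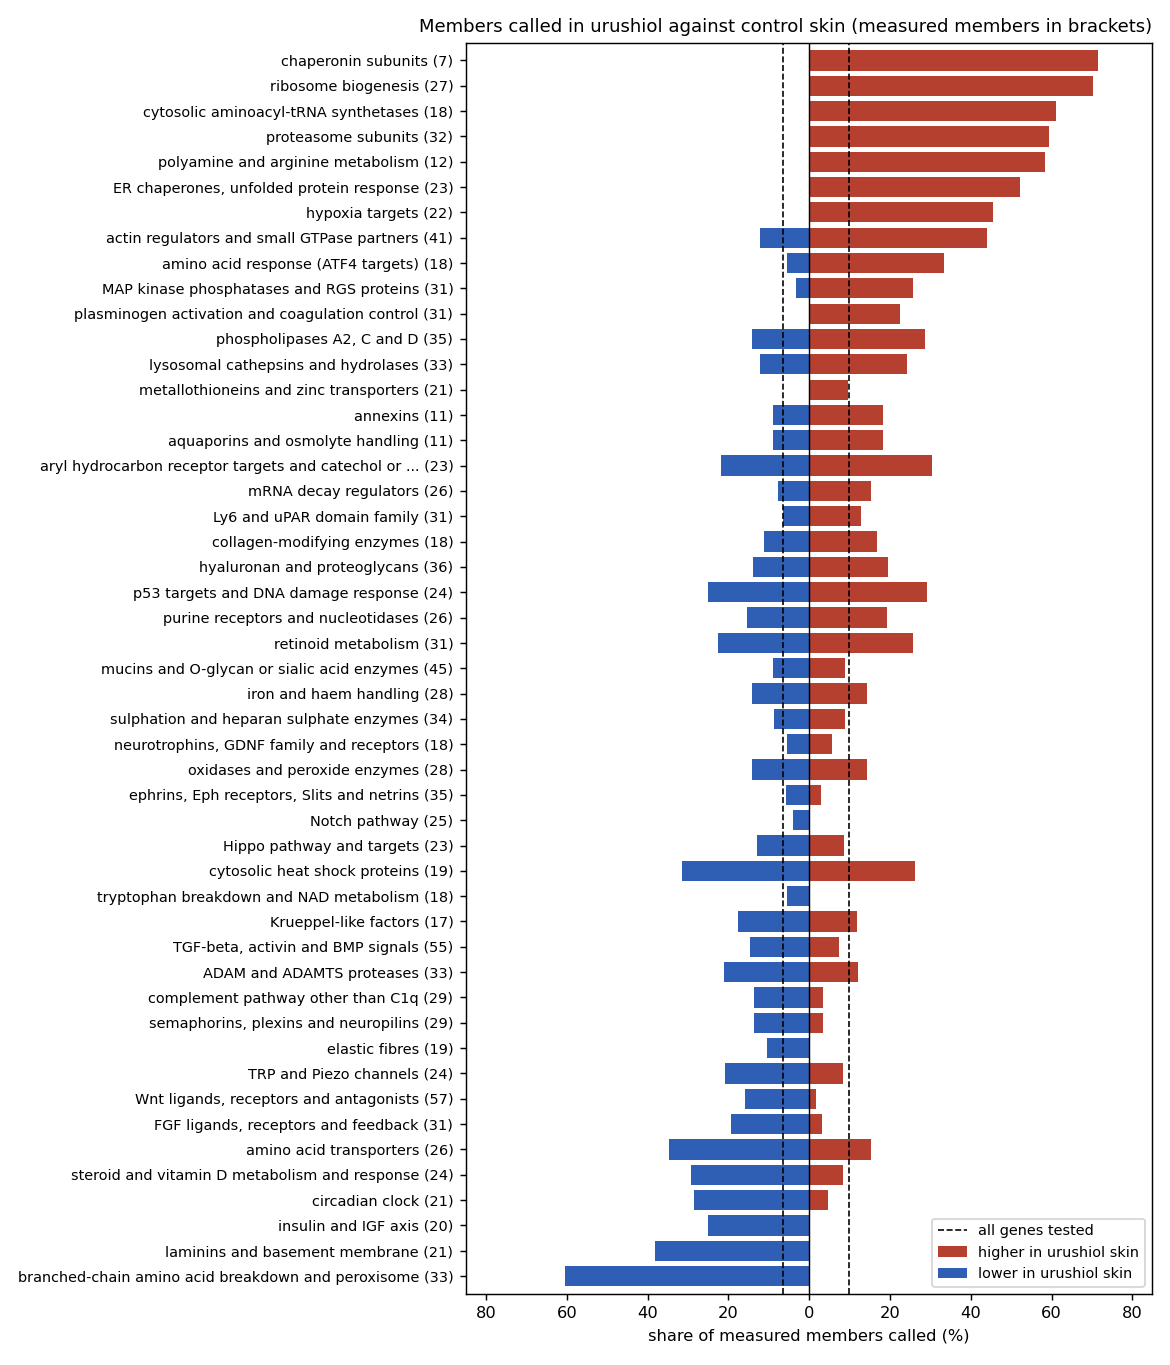
Share of the measured members of each of 49 lists that rose (red, to the right) or fell (blue, to the left) in urushiol against control skin, in percent, with the number of measured members in brackets; the dashed lines mark the shares over all genes (9.96% and 6.43%). The chaperonin, ribosome biogenesis and aminoacyl-tRNA synthetase lists stand at the top, followed by the proteasome and polyamine lists. The branched-chain and peroxisome list, 20 of 33 lower, stands at the bottom.

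Of the circadian clock genes, 1 of 21 measured members rose and 6 fell, with a median difference of -0.34. Its core is a loop in which CLOCK and its partners switch on repressors that later silence them, and Nr1d1 is one of those repressors. Nr1d1 stood at 9.81, 12.19 and 10.94 in control skin and 7.69, 7.68 and 8.09 in urushiol skin. Nr1d1 fell by 3.16 ± 0.55 (SE; adjusted p = 0.0115, at most 0.0461 with any 1 array left out), from control levels that were spread widely to urushiol levels that lay close together. The output factors Tef (-1.14) and Hlf (-1.27), the repressors Cry2 (-1.04) and Bhlhe41 (-1.62) and Npas2 (-1.58), a stand-in for CLOCK, fell as well. Dbp, with control levels of 7.31, 9.77 and 9.06, differed by -1.53 ± 0.56 (SE; adjusted p = 0.107), and Arntl by -0.72 ± 0.36 (SE; adjusted p = 0.22). Clock rose by 0.56 ± 0.15 (SE; adjusted p = 0.0419, above 0.05 without any 1 of control arrays 2 or 3 or urushiol arrays 1, 2 or 3, up to 0.129). After quantile renormalisation the call for Clock was lost, with a difference of -0.02 (limma adjusted p = 0.952). The labels do not give the hour of sampling. The clock list had 0 (without urushiol array 1) to 1 (without control array 1) rises (0 in the 6-array fit, 0 after quantile renormalisation) and 3 (without urushiol array 1) to 8 (without control array 1) falls (3 in the 6-array fit) with 1 array left out. Tef (0.0624 without urushiol array 1), Cry2 (0.0503 without urushiol array 1) and Bhlhe41 (0.0573 without urushiol array 1) had an adjusted p above 0.05 with that array left out.

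Several signalling families outside immunity had more falls than rises in the fit of all 9 arrays. In the 6-array fit the TGF-beta list had 3 rises and 1 fall, and the Hippo list 1 rise and 1 fall. Of 57 Wnt ligands, receptors and antagonists 1 rose (Wnt4, 0.45) and 9 fell. Lgr6, a receptor for R-spondins that marks stem cells of the upper hair follicle, stood at 8.54, 8.68 and 9.23 in control skin and 6.64, 6.59 and 6.78 in urushiol skin. Lgr6 fell by 2.15 ± 0.18 (SE; adjusted p = 0.0011, at most 0.00694 with any 1 array left out). Axin2, a feedback target of the pathway, fell by 0.76 and the receptor Fzd4 (-2.98). Of 55 genes of TGF-beta, activin and BMP signalling 4 rose and 8 fell. Skil, a repressor of SMAD proteins, stood at 9.02, 8.84 and 9.34 in control skin and 11.67, 11.57 and 11.33 in urushiol skin. Skil rose by 2.46 ± 0.15 (SE; adjusted p = 0.000452, at most 0.00327 with any 1 array left out). Inhba, which encodes the activin A subunit, stood at 7.10, 6.58 and 7.12 in control skin and 7.97, 8.05 and 7.99 in urushiol skin. Inhba rose by 1.07 ± 0.20 (SE; adjusted p = 0.0143, 0.0501 without urushiol array 1), and on the oxazolone arrays it stood at 9.35, 8.69 and 9.08; urushiol minus oxazolone was -1.04 ± 0.20 (SE; adjusted p = 0.266). Mstn, the muscle growth inhibitor, fell by 6.79, with control array 3 at 11.57 between the groups. The Wnt list had 0 (without control array 1) to 3 (without control array 3) rises (0 in the 6-array fit) and 3 (without control array 2) to 8 (without control array 3) falls (3 in the 6-array fit) with 1 array left out. The TGF-beta list had 2 (without control array 1) to 10 (without control array 3) rises with 1 array left out (3 in the 6-array fit). Its falls ran from 2 (without urushiol array 1) to 13 (without control array 3), with 1 in the 6-array fit. Wnt4 (0.137 without control array 2), Axin2 (0.0755 without control array 2) and Fzd4 (0.0563 without urushiol array 1) had an adjusted p above 0.05 with that array left out.

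In the insulin and IGF axis 5 of 20 members fell and 0 rose. Igfbp3, which holds IGF-1 in the extracellular space, stood at 11.32, 11.81 and 11.69 in control skin and 8.33, 8.45 and 8.51 in urushiol skin. Igfbp3 fell by 3.18 ± 0.25 (SE; adjusted p = 0.000836, at most 0.00617 with any 1 array left out). Igfbp5 (-3.23) and Igfbp6 (-2.13), of the same family, fell too, and the docking protein Irs1 stood at 10.82, 11.11 and 10.12 in control skin and 6.70, 7.63 and 7.88 in urushiol skin. Irs1 fell by 3.28 ± 0.40 (SE; adjusted p = 0.00371, at most 0.02 with any 1 array left out). Of the FGF genes 6 of 31 fell and 1, Fgfbp1, which releases FGFs from the matrix, rose by 1.59. Fgf18, a hair cycle signal, fell by 1.21 ± 0.10 (SE; adjusted p = 0.000952, at most 0.00695 with any 1 array left out). Of the Notch genes 1 of 25 changed (Dtx4, -0.75), which is 4% against 6.43% of all genes that fell. In the Hippo list the transcription factor Tead1 (-1.80) and the scaffolds Amot (-2.45) and Amotl1 (-1.69) fell, and 2 of 23 members rose. Of 31 MAP kinase phosphatases and RGS proteins, which act as brakes on signals, 8 rose and 1 fell. Dusp5 stood at 6.87, 7.50 and 7.24 in control skin and 9.61, 9.30 and 9.23 in urushiol skin. Dusp5 rose by 2.18 ± 0.21 (SE; adjusted p = 0.00162, at most 0.00893 with any 1 array left out), and Dusp14 by 2.35. The IGF list had up to 2 (without control array 3) rises with 1 array left out. The Notch list had up to 1 (without control array 3) rise and 0 (without control array 1) to 2 (without urushiol array 2) falls (0 in the 6-array fit, 2 after quantile renormalisation) with 1 array left out. The Hippo list had 1 (without control array 1) to 4 (without control array 3) rises (1 in the 6-array fit) and 1 (without control array 2) to 5 (without control array 3) falls (1 in the 6-array fit) with 1 array left out. The FGF list had 0 (without control array 1) to 7 (without control array 3) rises (0 in the 6-array fit) and 2 (without control array 2) to 8 (without control array 3) falls (2 in the 6-array fit) with 1 array left out. The phosphatase list had 5 (without control array 1) to 8 (without control array 3) rises and 0 (without control array 1) to 3 (without control array 3) falls (0 in the 6-array fit) with 1 array left out. Fgfbp1 (0.0651 without control array 1), Dtx4 (0.066 without control array 2), Tead1 (0.0526 without urushiol array 1) and Amot (0.107 without urushiol array 1) had an adjusted p above 0.05 with that array left out.

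Guidance and growth signals for nerves were read in 3 lists. Ephrins, Eph receptors, Slits and netrins had 1 of 35 members higher and 2 lower (0 and 0 in the 6-array fit). Neurotrophins, the GDNF family and their receptors had 1 of 18 higher and 1 lower (1 and 0 in the 6-array fit). The shares were 2.86% and 5.71% for the first list and 5.56% each way for the second, against 9.96% and 6.43% of all genes. Sema3d, a secreted semaphorin that repels axons, stood at 12.68, 12.37 and 12.69 in control skin and 6.98, 6.87 and 7.53 in urushiol skin. Sema3d fell by 5.45 ± 0.21 (SE; adjusted p = 0.000251, at most 0.00264 with any 1 array left out), and so did Sema3c (-1.67) and Sema3b (-1.01); 4 of 29 semaphorins, plexins and neuropilins fell and 1, Sema7a, rose (0.59). Nrg1, an EGF-like ligand for ERBB receptors, stood at 5.14, 5.32 and 5.45 in control skin and 9.26, 8.84 and 9.35 in urushiol skin. Nrg1 rose by 3.85 ± 0.17 (SE; adjusted p = 0.000251, at most 0.00296 with any 1 array left out). Artn, a GDNF-family ligand for sensory neurons, differed by 0.16 ± 0.04 (SE; adjusted p = 0.0507). The receptor Epha2 rose by 1.51 and the ligand Efna3 fell by 1.22. The semaphorin list had 0 (without control array 1) to 1 (without control array 3) rises (2 in the 6-array fit) and 2 (without control array 1) to 4 (without control array 3) falls with 1 array left out. Sema3c (0.0507 without control array 1), Sema7a (0.097 without control array 1), Epha2 (0.0626 without control array 2) and Efna3 (0.0592 without control array 2) had an adjusted p above 0.05 with that array left out.

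The matrix lists held changes of both signs. Of 36 hyaluronan and proteoglycan genes 7 rose and 5 fell. Cd44, the hyaluronan receptor, stood at 13.23, 12.64 and 14.50 in control skin and 16.67, 16.28 and 16.61 in urushiol skin. Cd44 rose by 3.06 ± 0.42 (SE; adjusted p = 0.00548, at most 0.0271 with any 1 array left out). Has3, a hyaluronan synthase, rose by 1.58 ± 0.24 (SE; adjusted p = 0.00733, at most 0.0326 with any 1 array left out), while Has1 and Has2 differed by 0.68 ± 0.29 (SE; adjusted p = 0.158) and 0.95 ± 0.33 (SE; adjusted p = 0.094). Tnfaip6, which cross-links hyaluronan, rose by 3.26. The small leucine-rich proteoglycan Prelp fell by 2.22 ± 0.33 (SE; adjusted p = 0.00669, at most 0.0307 with any 1 array left out), and its relatives Omd (-1.08) and Fmod (-0.80) fell too. Of 21 laminins and basement membrane genes 8 fell and 0 rose, with a median of -0.50. Dst, which ties hemidesmosomes to intermediate filaments and is also made in muscle and nerve, stood at 12.45, 12.84 and 11.51 in control skin and 9.37, 10.05 and 9.80 in urushiol skin. Dst fell by 2.53 ± 0.35 (SE; adjusted p = 0.00553, at most 0.0271 with any 1 array left out), Lamb2 (-1.96) and Lama2, a laminin chain of muscle and nerve (-1.27). Fibroblast markers averaged 16.18, 15.90 and 16.09 in control and 14.56, 15.56 and 14.89 in urushiol skin, with 3 of 6 lower, of which 0 were lower without control array 1 and in the 6-array fit, and their part in these falls was not tested. The hyaluronan list had 4 (without control array 1) to 9 (without control array 3) rises and 3 (without control array 1) to 6 (without control array 3) falls (3 in the 6-array fit, 9 after quantile renormalisation) with 1 array left out. The laminin list had up to 1 (without control array 3) rise (1 in the 6-array fit) and 5 (without urushiol array 1) to 8 (without control array 3) falls (5 in the 6-array fit) with 1 array left out. Tnfaip6 (0.0574 without urushiol array 3) and Lama2 (0.0541 without control array 2) had an adjusted p above 0.05 with that array left out.

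Proteases at the cell surface free growth factors and clear fibrin. In the plasminogen and coagulation list 7 of 31 rose and 0 fell, with a median of 0.09. Plaur, the urokinase receptor, stood at 7.15, 6.83 and 7.0 in control skin and 9.61, 9.53 and 9.47 in urushiol skin. Plaur rose by 2.54 ± 0.20 (SE; adjusted p = 0.000807, at most 0.0061 with any 1 array left out), its ligand Plau by 1.37 and the inhibitor Serpinb2 by 2.73 ± 0.41 (SE; adjusted p = 0.00724, at most 0.0304 with any 1 array left out). Thbd and Procr, which turn thrombin towards anticoagulation, rose by 1.91 and 1.20. Of 33 ADAM and ADAMTS proteases 4 rose and 7 fell, among the falls Adamtsl1 (-0.91) and Adam23 (-0.84). Adam8, a leukocyte metalloprotease, stood at 6.60, 6.69 and 6.76 in control skin and 8.91, 8.91 and 9.07 in urushiol skin. Adam8 rose by 2.28 ± 0.12 (SE; adjusted p = 0.000253, at most 0.003 with any 1 array left out), and the shedding protease Adam10 by 1.39. Of 29 complement genes other than C1q 1 rose and 4 fell. C7, a subunit of the membrane attack complex, stood at 15.45, 16.15 and 14.04 in control skin and 9.82, 9.54 and 11.22 in urushiol skin. C7 fell by 5.02 ± 0.62 (SE; adjusted p = 0.00371, at most 0.0202 with any 1 array left out), and the brakes Cd55 (-1.70) and Cd59a (-2.14) fell. In the Ly6 and uPAR family Lypd3, a surface protein of upper keratinocytes, stood at 9.74, 10.29 and 10.69 in control skin and 13.82, 13.61 and 13.92 in urushiol skin. Lypd3 rose by 3.54 ± 0.28 (SE; adjusted p = 0.00089, at most 0.0068 with any 1 array left out) and Ly6d by 2.21, while the secreted relative Slurp1 differed by -0.62 ± 0.70 (SE; adjusted p = 0.606). The ADAM list had 4 (without control array 1) to 8 (without control array 3) rises and 2 (without urushiol array 3) to 7 (without control array 3) falls (4 in the 6-array fit) with 1 array left out. The complement list had 0 (without control array 1) to 2 (without urushiol array 2) rises and 2 (without control array 1) to 6 (without control array 3) falls (2 in the 6-array fit) with 1 array left out. Procr (0.0748 without urushiol array 1), Adamtsl1 (0.08 without urushiol array 1), Adam23 (0.0513 without urushiol array 3) and Cd59a (0.0509 without control array 1) had an adjusted p above 0.05 with that array left out.

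Phospholipases release fatty acids and signals from membranes. Of 35 phospholipases 10 rose and 5 fell. Pla2g4e, a cytosolic phospholipase that makes N-acyl ethanolamine precursors, stood at 7.48, 7.73 and 7.43 in control skin and 12.67, 11.78 and 12.70 in urushiol skin. Pla2g4e rose by 4.84 ± 0.28 (SE; adjusted p = 0.000339, at most 0.00322 with any 1 array left out), and its relatives Pla2g4d and Pla2g4f by 3.78 and 1.92. Plaat3, a phospholipase of fat cells, fell by 2.59 ± 0.35 (SE; adjusted p = 0.00497, at most 0.0233 with any 1 array left out). The phospholipase list had 1 (without control array 2) to 6 (without control array 3) falls (1 in the 6-array fit) with 1 array left out. Of 41 actin regulators 18 rose and 5 fell, with a median of 0.41. Cfl1, which severs actin filaments, stood at 15.15, 14.64 and 15.95 in control skin and 17.16, 16.80 and 16.95 in urushiol skin. Cfl1 rose by 1.72 ± 0.31 (SE; adjusted p = 0.0125, 0.0508 without urushiol array 1), and the membrane linkers Msn and Ezr by 1.56 and 1.19, while Tpm2 (-3.43) and Flnc (-3.16), which are abundant in muscle, fell, with control array 3 between the groups. The actin list had 9 (without control array 2) to 19 (without control array 3) rises and 1 (without urushiol array 1) to 5 (without control array 3) falls (1 in the 6-array fit) with 1 array left out. Of the lysosomal genes 8 of 33 rose and 4 fell, while after quantile renormalisation 5 rose and 8 fell. The cysteine protease inhibitor Cstb (2.53) and cathepsins Ctsl (1.90) and Ctsc (1.89) were among the rises. The lysosome list had 1 (without control array 1) to 5 (without control array 3) falls (2 in the 6-array fit) with 1 array left out. Ezr (0.0575 without control array 2) and Flnc (0.0996 without urushiol array 1) had an adjusted p above 0.05 with that array left out.

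The other lists gave fewer calls or calls in both directions, beside 9.96% of all genes that rose and 6.43% that fell. Glycan enzymes, at 8.89% each way, and heparan sulphate enzymes, at 8.82% each way, lay near those shares. Of the p53 targets 7 of 24 rose and 6 fell, from Plk3 (2.41) and Plk2 (2.18), kinases of the stress response, to Ccng1 (-3.14), a cyclin and classical p53 target. Cdkn1a, the cell cycle inhibitor p21, differed by 0.24 ± 0.10 (SE; adjusted p = 0.147). Of the iron and haem genes 4 of 28 rose and 4 fell, among them Cpox (1.51) and Fech (-1.31), a middle and the last step of haem synthesis, and Trf (-2.05), transferrin. Glycan enzymes had 4 of 45 higher and 4 lower, with Galnt3 (2.81), which starts O-glycans, and the sialyltransferase St3gal3 (-2.09) at the ends. Collagen-modifying enzymes had 3 of 18 higher, including P4hb (1.60), a shared subunit of prolyl hydroxylase, and 2 lower, including Pcolce2 (-2.81), an enhancer of procollagen cleavage. Anxa1 (1.53), a resolving signal of inflammation, and Anxa2 (0.80) rose and Anxa6 (-1.89) fell out of 11 annexins, but after quantile renormalisation 0 annexins rose and 3 fell. Of 26 regulators of mRNA decay 4 rose and 2 fell, and 3 and 6 did after quantile renormalisation; Zc3h12a, the ribonuclease Regnase-1, rose by 1.23. Krueppel-like factors had 2 of 17 higher, Klf7 (2.13) the more, and 3 lower. Heparan sulphate enzymes had 3 of 34 higher, led by heparanase (Hpse, 1.57), and 3 lower. Tryptophan and NAD genes had 0 of 18 higher and 1 lower (Tdo2, -0.69), with the kynureninase gene Kynu at 0.01 ± 0.04 (SE; adjusted p = 0.944). Elastic fibre genes had 0 of 19 higher and 2 lower, Ltbp4 (-1.04) and Efemp1 (-1.27). The p53 list had 4 (without control array 1) to 7 (without control array 3) rises and 2 (without control array 2) to 6 (without control array 3) falls (3 in the 6-array fit) with 1 array left out. The heparan sulphate list had 0 (without control array 1) to 5 (without control array 3) rises (1 in the 6-array fit) with 1 array left out. The collagen enzyme list had 1 (without urushiol array 1) to 3 (without control array 3) rises with 1 array left out. The annexin list had 1 (without control array 1) to 2 (without control array 3) rises (1 in the 6-array fit) and 0 (without control array 1) to 1 (without control array 3) falls (0 in the 6-array fit) with 1 array left out. The Krueppel-like list had 1 (without control array 2) to 2 (without control array 1) rises (1 in the 6-array fit, 1 after quantile renormalisation) and 1 (without urushiol array 1) to 4 (without control array 3) falls (1 in the 6-array fit) with 1 array left out. The tryptophan list had up to 1 (without control array 3) rise (1 in the 6-array fit) and 0 (without control array 1) to 2 (without control array 3) falls (0 in the 6-array fit) with 1 array left out. The elastic fibre list had up to 1 (without control array 3) rise and 1 fall each time (1 in the 6-array fit) with 1 array left out. The iron list had 1 (without control array 1) to 4 (without control array 3) rises (2 in the 6-array fit, 2 after quantile renormalisation) and 1 (without control array 1) to 5 (without control array 3) falls (2 in the 6-array fit) with 1 array left out. The mRNA decay list had 1 (without urushiol array 1) to 5 (without control array 3) rises (1 in the 6-array fit) and 0 (without control array 2) to 2 (without control array 3) falls (1 in the 6-array fit) with 1 array left out. The glycan list had 2 (without control array 2) to 5 (without control array 3) rises and 1 (without control array 1) to 9 (without control array 3) falls (1 in the 6-array fit) with 1 array left out. Ccng1 (0.0569 without control array 2), Fech (0.093 without urushiol array 1), St3gal3 (0.106 without urushiol array 1), Anxa2 (0.137 without control array 2), Anxa6 (0.135 without control array 2), Zc3h12a (0.0786 without urushiol array 1), Hpse (0.125 without control array 2), Tdo2 (0.116 without control array 2) and Efemp1 (0.131 without urushiol array 1) had an adjusted p above 0.05 with that array left out.

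**Figure D4:**
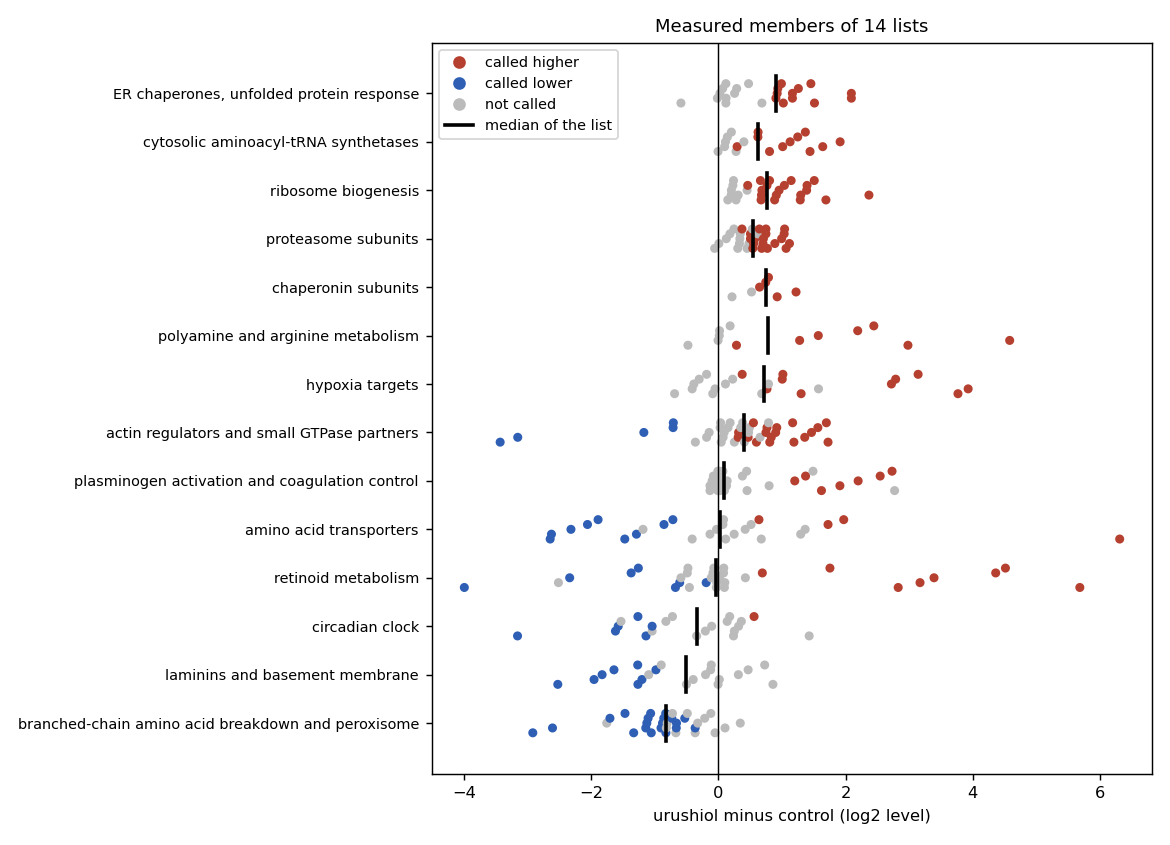
Difference in log2 level between urushiol and control skin (horizontal axis) for every measured member of 14 lists; red and blue points rose or fell, grey points did neither, and the black bar is the median of the list. The medians run from 0.90 for the chaperones of the endoplasmic reticulum to -0.82 for branched-chain and peroxisomal genes, and the retinoid and transporter lists spread to both sides of 0.

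Whole gene families gave a wider view than the pathway lists. Cytochrome P450 genes had 3 of 89 higher (3.37%) and 12 lower (13.5%), against 9.96% and 6.43% of all genes. Cyp2g1, known from olfactory mucosa, stood at 5.52, 5.46 and 8.30 in control skin and 10.30, 13.20 and 13.13 in urushiol skin. Cyp2g1 rose by 5.78 ± 1.09 (SE; adjusted p = 0.0153, above 0.05 without any 1 of control arrays 1 or 2 or urushiol array 3, up to 0.058), with control array 3 well above the other controls. Cyp2e1, which oxidises ethanol and acetone, stood at 14.76, 15.58 and 14.31 in control skin and 10.11, 9.69 and 10.85 in urushiol skin. Cyp2e1 fell by 4.67 ± 0.42 (SE; adjusted p = 0.00133, at most 0.00875 with any 1 array left out), and Cyp2f2 (-2.85). ABC transporters had 5 of 48 higher (10.4%, near the share of all genes) and 11 lower (22.9%). Abca12, the lipid carrier of the skin barrier, rose by 1.64. Abca5, of the same family, fell by 3.85 ± 0.19 (SE; adjusted p = 0.000251, at most 0.003 with any 1 array left out). Solute carriers had 40 of 375 higher (10.7%), near the 9.96% of all genes, and 43 lower (11.5%). Slc26a9, a chloride carrier, stood at 6.99, 6.98 and 7.61 in control skin and 11.12, 11.22 and 11.10 in urushiol skin. Slc26a9 rose by 3.95 ± 0.34 (SE; adjusted p = 0.00109, at most 0.00789 with any 1 array left out), Slc5a1, the sodium and glucose carrier SGLT1, by 3.89 ± 0.42 (SE; adjusted p = 0.00233, at most 0.0139 with any 1 array left out), and Slc2a12, another glucose carrier, fell by 3.28. The ABC transporter list had 6 (without control array 2) to 15 (without control array 3) falls (7 in the 6-array fit) with 1 array left out. The solute carrier list had 22 (without control array 1) to 52 (without control array 3) rises (25 in the 6-array fit) and 23 (without control array 2) to 58 (without control array 3) falls (21 in the 6-array fit) with 1 array left out. The P450 list had 1 (without control array 1) to 5 (without control array 3) rises with 1 array left out.

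Zinc finger genes named Zfp fell in 36 of 363 cases (9.92%) and rose in 9 (2.48%), and after quantile renormalisation 52 fell. Zfp750, a regulator of keratinocyte differentiation, rose by 1.50 ± 0.33 (SE; adjusted p = 0.0267, above 0.05 without any 1 of control array 2 or urushiol arrays 1, 2 or 3, up to 0.0778), and Zfp106 fell by 2.54 ± 0.58 (SE; adjusted p = 0.0291, above 0.05 without any 1 of control arrays 1 or 2 or urushiol arrays 1, 2 or 3, up to 0.0914). Hox genes, which mark position along the body, had 7 of 33 lower and 0 higher. Hoxa6 stood at 7.20, 7.35 and 5.99 in control skin and 5.49, 5.22 and 5.27 in urushiol skin. Hoxa6 fell by 1.52 ± 0.35 (SE; adjusted p = 0.0302, above 0.05 without any 1 of control arrays 1 or 2 or urushiol arrays 1, 2 or 3, up to 0.0948). Potassium channels had 6 of 88 higher (6.82%) and 9 lower (10.2%), against 9.96% and 6.43% of all genes. Voltage-gated sodium and calcium channels had 0 of 35 higher and 6 lower, led by Cacna1s (-5.31). That calcium channel of skeletal muscle is itself a muscle marker here. Small protease inhibitors of the WAP and Kazal types had 6 of 29 higher. Spink7 stood at 4.61, 4.78 and 4.86 in control skin and 10.80, 12.58 and 10.20 in urushiol skin. Spink7 rose by 6.44 ± 0.79 (SE; adjusted p = 0.00363, at most 0.0195 with any 1 array left out), Wfdc12 by 3.44 and Spink12 by 2.91. Few members of 2 families with low levels rose, 9 of 1083 olfactory receptors (0.831%) and 1 of 299 vomeronasal receptors (0.334%). Their mean levels in urushiol skin, 4.44 and 4.48, lay below the median of all clusters (5.58). The sodium and calcium channel list had up to 1 (without control array 3) rise and 0 (without control array 1) to 9 (without control array 3) falls (0 in the 6-array fit) with 1 array left out. The WAP and Kazal list had 0 (without control array 1) to 2 (without control array 3) falls (0 in the 6-array fit, 2 after quantile renormalisation) with 1 array left out. The olfactory receptor list had 4 (without urushiol array 1) to 13 (without control array 3) rises and up to 7 (without control array 3) falls (1 after quantile renormalisation) with 1 array left out. The vomeronasal list had 0 (without control array 2) to 4 (without control array 3) rises (0 in the 6-array fit, 0 after quantile renormalisation) and 0 (without control array 1) to 2 (without control array 3) falls (0 in the 6-array fit) with 1 array left out. The Hox list had 2 (without control array 1) to 14 (without control array 3) falls (1 in the 6-array fit) with 1 array left out. The potassium channel list had 2 (without control array 2) to 9 (without control array 3) rises with 1 array left out (4 in the 6-array fit). Its falls ran from 3 (without control array 1) to 14 (without control array 3), with 3 in the 6-array fit. The Zfp list had 4 (without control array 2) to 22 (without control array 3) rises (4 in the 6-array fit) and 14 (without urushiol array 3) to 57 (without control array 3) falls (13 in the 6-array fit) with 1 array left out. Cacna1s (0.053 without urushiol array 1) had an adjusted p above 0.05 with that array left out.

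Clusters named for microRNA genes rose in 24 of 600 cases (4%) and fell in 9 (1.5%), against 9.96% and 6.43% of all genes. After quantile renormalisation 19 rose and 18 fell. The microRNA list had 7 (without urushiol array 1) to 34 (without control array 3) rises (9 in the 6-array fit) and 1 (without urushiol array 3) to 18 (without control array 3) falls (2 in the 6-array fit) with 1 array left out. The sources used here do not say whether such a cluster reads the precursor, the host transcript or the mature microRNA. RefSeq lists 28 of the 33 called genes, and not every called gene entered the comparison of seeds (bases 2 to 8). A seed shared with a gene left out was thus not tested. Among the mature sequences compared, no seed was shared between called genes. Mature sequences of the best known of these genes are shown with the seed in capitals. The first 6 are from genes that rose and the last 3 from genes that fell. Apart from Mir31, only 1 mature sequence of each gene is shown, for Mir1a-1 the 5p one.
mmu-miR-31-5p: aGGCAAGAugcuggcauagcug
mmu-miR-31-3p: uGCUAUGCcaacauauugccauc
mmu-miR-511-3p: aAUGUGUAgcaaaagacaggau
mmu-miR-125b-5p: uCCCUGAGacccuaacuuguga
mmu-miR-674-5p: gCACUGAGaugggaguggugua
mmu-miR-33-5p: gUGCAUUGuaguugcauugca
mmu-miR-30c-5p: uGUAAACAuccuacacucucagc
mmu-miR-365-3p: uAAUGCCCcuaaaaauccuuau
mmu-miR-1a-1-5p: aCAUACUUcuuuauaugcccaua
Mir31, a microRNA gene known to be active in inflamed and wounded epidermis, stood at 6.40, 6.28 and 7.07 in control skin and 8.99, 9.31 and 8.70 in urushiol skin. Mir31 rose by 2.42 ± 0.25 (SE; adjusted p = 0.0021, at most 0.0127 with any 1 array left out), with no overlap. Mir511, which lies in a mannose receptor gene of macrophages, rose by 1.99 ± 0.51 (SE; adjusted p = 0.0405, above 0.05 without any 1 of control arrays 1 or 2 or urushiol arrays 1 or 3, up to 0.13), and Mir125b-1, at a low level of 3.59, 4.38 and 5.03 in control skin and 6.76, 5.80 and 5.84 in urushiol skin, by 1.80 ± 0.43 (SE; adjusted p = 0.0327, above 0.05 without any 1 of control arrays 1 or 2 or urushiol arrays 1, 2 or 3, up to 0.1). Mir674 and Mir33 rose by 1.23 and 0.56. Mir1a-1, a muscle microRNA, stood at 6.99, 7.50 and 5.61 in control skin and 4.66, 4.24 and 4.76 in urushiol skin. Mir1a-1 fell by 2.15 ± 0.45 (SE; adjusted p = 0.0213, above 0.05 without any 1 of control arrays 1 or 2 or urushiol arrays 1, 2 or 3, up to 0.0732), with control array 3 between the groups; Mir30c-2 (-0.77) and Mir365-1 (-1.25) fell too. Mir674 (0.0603 without urushiol array 1), Mir33 (0.079 without control array 1), Mir30c-2 (0.0657 without control array 2) and Mir365-1 (0.132 without control array 2) had an adjusted p above 0.05 with that array left out.

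Ranked by the moderated t statistic over all genes, the 8 leading rises included both abundant and modest changes. Stfa2, a stefin that inhibits cysteine proteases and has near-identical relatives, stood at 6.52, 7.08 and 8.31 in control skin and 16.66, 16.06 and 16.30 in urushiol skin. Stfa2 rose by 9.04 ± 0.45 (SE; adjusted p = 0.000251, at most 0.003 with any 1 array left out). The cytokine Il1b rose by 7.77. Ltv1, a factor for export of the small ribosomal subunit, rose by 0.99 ± 0.05 (SE; adjusted p = 0.000251, at most 0.00296 with any 1 array left out), with its arrays tightly grouped. Klra2, a lectin-like receptor, Spink14 and Pcdhb17, a clustered protocadherin, rose by 1.99, 1.80 and 1.37; Nrg1 and Adam8 complete the 8. Of the 8 leading falls Mrgprb3, a Mas-related receptor, stood at 12.36, 12.36 and 12.71 in control skin and 5.76, 5.91 and 5.96 in urushiol skin. Mrgprb3 fell by 6.60 ± 0.19 (SE; adjusted p = 9.46e-05, at most 0.0024 with any 1 array left out). Bbox1, the last step of carnitine synthesis, stood at 13.45, 13.54 and 13.67 in control skin and 9.35, 9.09 and 9.05 in urushiol skin. Bbox1 fell by 4.39 ± 0.20 (SE; adjusted p = 0.000251, at most 0.00296 with any 1 array left out). Skint7 (-5.53), Cpxm2 (-3.01), the adaptor Dab1 (-2.08) and the lysosomal protein Laptm4b (-1.63) also fell; Sema3d and Ephx1 are the others.

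Which changes differ between urushiol and oxazolone, a synthetic contact allergen, was tested only in the direct contrast, since both allergens share the control arrays: 2 of 30142 genes (0.00664%) were higher and 3 (0.00995%) lower in urushiol than in oxazolone skin by limma over all arrays, and 1772 genes had an unadjusted p below 0.05. Deviations of same-numbered urushiol and oxazolone arrays correlated at 0.201, 0.197 and 0.124. With the replicate number as a block on all 9 arrays, controls included, 0 genes passed. That fit has fewer residual degrees of freedom. For Gbp2, an interferon-induced GTPase, urushiol minus oxazolone was -7.68 ± 0.68 (SE; adjusted p = 0.0486). Gbp2 stood at 8.89, 9.67 and 9.64 in control, 16.32, 15.52 and 18.05 in oxazolone and 9.84, 8.33 and 8.67 in urushiol skin, level with the controls under urushiol. Rgs16, a brake on G protein signalling, stood at 6.55, 6.42 and 6.62 in control, 8.35, 8.34 and 8.66 in oxazolone and 7.01, 7.25 and 7.23 in urushiol skin. Stat4, a transcription factor of T and NK cells, stood at 5.25, 5.39 and 5.30, at 6.92, 7.05 and 6.82 and at 6.14, 6.14 and 6.19 in the same order. For both, urushiol skin lay between the control and oxazolone arrays. Pcdhb17 stood at 7.01, 7.12 and 7.13 in control, 7.63, 7.51 and 7.75 in oxazolone and 8.50, 8.42 and 8.44 in urushiol skin. Smpd1, the acid sphingomyelinase that makes ceramide, stood at 9.89, 9.84 and 9.95, at 9.54, 9.63 and 9.82 and at 10.57, 10.56 and 10.46. Every urushiol array of both genes lay above all other arrays. All 5 had an adjusted p of 0.0486. None of the 49 lists had a member called in this contrast except the list of MAP kinase phosphatases and RGS proteins, through Rgs16. For Hspa5 urushiol minus oxazolone was 0.71 ± 0.29 (SE; adjusted p = 0.836) and for Aqp3 0.42 ± 0.40 (SE; adjusted p = 0.995), which does not show that the allergens act alike.

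**Figure D5:**
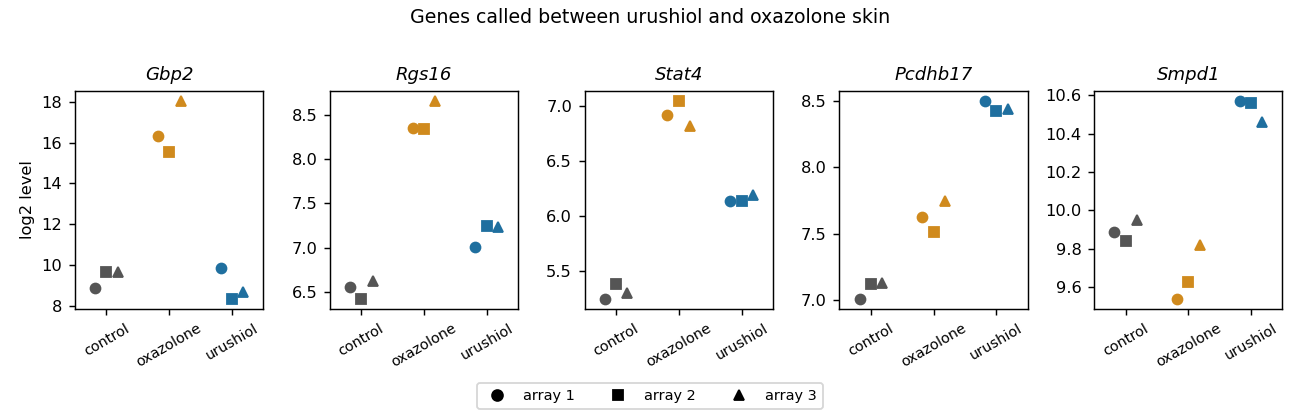
log2 level (vertical axes, which differ between panels and do not start at 0) of the 5 genes that differed between urushiol and oxazolone skin, on each array of the 3 groups; symbols are arrays. Gbp2 lies at 15.52 to 18.05 on the oxazolone arrays and at 8.33 to 9.84 on all others, and Pcdhb17 and Smpd1 are highest on the urushiol arrays.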

How the data were processed

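RNA of 9 mouse skin samples was measured on Affymetrix arrays. The deposited values are log2 levels per transcript cluster; the submitters' processing notes name RMA, Expression Console 1.4 and TAC, without their order. Why values exceed 16, and the genome build, are not given in the sources used here. Of 65956 clusters 30604 had 1 gene symbol, and each of 30142 genes was represented by its cluster of highest mean level; 105 listed genes had no such cluster and were not analysed here. limma 3.58.1 in R 4.3.3 fitted all 9 arrays, two-sided, and was checked on simulated data. Sequences and promoters came from RefSeq (GRCm38.p6). Arrays carry no depth, so their number limits the precision.

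The members and lists were chosen with earlier results of these data known. Named genes were, per list, up to 3 members with the largest non-overlapping called rise and up to 3 with the largest fall, the 8 leading genes by moderated t in each direction (without predicted genes or receptor segments), members called between the allergens, and a set of 39 well-known genes; further members were named to follow a pathway, after their values were seen. Deviations of same-numbered arrays correlated at 0.201, 0.197 and 0.124 for urushiol and oxazolone, and at 0.123, 0.064 and -0.232 for urushiol and control. For control and oxazolone the same-numbered values were 0.337, -0.163 and -0.052. Differently numbered urushiol and oxazolone arrays reached at most 0.021, but control array 3 and oxazolone array 2 reached 0.285. The deviations are from group means and sum to 0 within each group, so these correlations are not independent of each other. Whether the numbers pair arrays is thus not settled, and the block is an alternative fit.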

Additional observations from a re-analysis of the deposited data

Results flagged for a closer look

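Differences between the 2 allergens were tested directly in the contrast of urushiol with oxazolone skin, and 5 genes passed limma's test with Benjamini-Hochberg adjustment, each with all 3 arrays of a group on one side. Urushiol minus oxazolone was -7.68 for Gbp2, -1.29 for Rgs16, -0.77 for Stat4, 0.82 for Pcdhb17 and 0.87 for Smpd1. With the replicate number as a block all 5 calls were lost. Gbp2 is the only one whose urushiol arrays lay level with the controls, and the part of any other cell type in these differences was not tested.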

How the results depend on the processing

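Of the 307 named genes that differed between urushiol and control skin, 116 stayed on the same side of the threshold in all 17 alternatives, 156 kept their call when any 1 control or urushiol array was left out, and 17 lost it without control array 3. Against control, 2782 of the rises and 1831 of the falls were kept without control array 3. Rises and falls numbered 1449 and 875 with only the 6 arrays compared, 539 and 323 by treat at a log2 difference of 0.5, and 1326 to 4566 and 863 to 3089 with any 1 of the 9 arrays left out; the filter on dim genes, cluster means, median centring, quantile renormalisation, the replicate block, and trended and robust variances moved both counts by less than 1.5 times. Between the allergens the counts of genes higher and lower in urushiol skin were 0 and 0 with the replicate block, with median centring, with trended and robust variances and by treat, 4 and 30 with the filter on dim genes, 2 and 0 with only the 6 arrays compared, 2 and 17 after quantile renormalisation, and 0 to 7 and 0 to 91 with 1 array left out. Signs turned for 1 called gene, Clock (-0.0189 after quantile renormalisation), and otherwise for genes without a call. After quantile renormalisation these were Kynu (-0.0548, and -0.0417 with median centring), Mt1 (-0.124) and Cdkn1a (-0.296). With 1 array left out the differences ran from -0.258 to 0.0167 for Per2, from -0.00 to 0.01 for Kynu, from -0.045 to 0.02 for Nos2, from -0.133 to 0.03 for Cyp26b1 (0.0167 without control array 2 or 3) and from -1.08 to 0.0233 for Slurp1. The cause of these changes was not tested. With fewer arrays the fits have fewer residual degrees of freedom.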
